A study of Mus musculus with 16 samples.

Results

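MicroRNAs carried by extracellular vesicles in lung lavage were compared between Sdc1 knockout and wild-type mice without bleomycin injury. Of the 16 libraries deposited, the 8 labelled Normal were compared, 4 from each genotype, across the 325 of 1907 listed mature miRNAs that reached 10 CPM in at least 4 of the 16 libraries. CPM is a miRNA's count scaled to a library total of 1000000, so every level is a share of that library. The wild-type mice are labelled C57BL/6-wildtype and the knockout mice C57BL/6-Sdc1-/-. Control animals had PBS in place of bleomycin, per the labels' protocols. Vesicle RNA came from bronchoalveolar lavage fluid, the saline wash of the airways and alveoli. The other 8 libraries, from the same genotypes after 21 days of bleomycin, a drug that injures the lung, entered the shared estimate of the spread. The age and sex of the mice, the number of animals behind a library and how the knockout was made were not stated in the sources used here. The labels do not tie each library to its own animal, so p-values measure the spread between libraries, which may be technical. Because the assay read miRNAs, the Sdc1 transcript could not be used to check the genotype.

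Sdc1 encodes syndecan-1, a transmembrane heparan sulfate proteoglycan that is abundant on epithelial cells. Through its cytoplasmic adaptors it is known to take part in the formation of vesicles inside endosomes, which cells release as exosomes. Among the cargo of such vesicles are mature miRNAs, small guide RNAs that repress transcripts they pair with mainly through the seed, the bases near the 5′ end. In lavage the vesicles come from a mixture of epithelial, immune and other cells, and fewer vesicles of a type cannot be told apart from less of a miRNA per vesicle.

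Depth differed among the 8 libraries. Wild-type libraries 1 to 4 held 1094908, 2556707, 9062406 and 8663688 miRNA reads, and knockout libraries 1 to 4 held 12395166, 2753095, 12837837 and 9478786. A single read was thus worth between 0.0779 and 0.913 CPM, and a count of 0 allows up to 3 reads, or 0.234 to 2.74 CPM, for counting error only. The first principal component of the 8 profiles held 71.0% of their variance and ordered them nearly by depth. Wild-type libraries 1 to 4 lay at -13.2, -13.4, -1.27 and 2.09 on it, and knockout libraries 1 to 4 at 11.2, -9.93, 15.8 and 8.78. Knockout library 2 therefore stood apart from the other knockout libraries and beside wild-type libraries 1 and 2, and these are the 3 shallowest. The median SD of a miRNA on the log2 scale was 0.471 among the 4 knockout libraries, 0.256 without library 2, and 0.438 among the wild-type libraries. Because library 2 carries that weight, values without it are given beside leading results, or else values for the 5 deeper libraries (wild type 3 and 4 against knockout 1, 3 and 4) and from a fit that holds log2 reads constant, called depth-adjusted below. The groups did not differ past the test in reads (9366220 ± 4653770 in the knockout and 5344430 ± 4109770 in wild type, SD, n = 4, two-sided exact permutation p = 0.171, adjusted p = 0.471 over 3 measures). Nor did they in the share of the 10 most abundant miRNAs (68.0% ± 1.08 and 68.2% ± 5.40, exact permutation p = 0.971, adjusted p = 0.971).

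**Figure D1:**
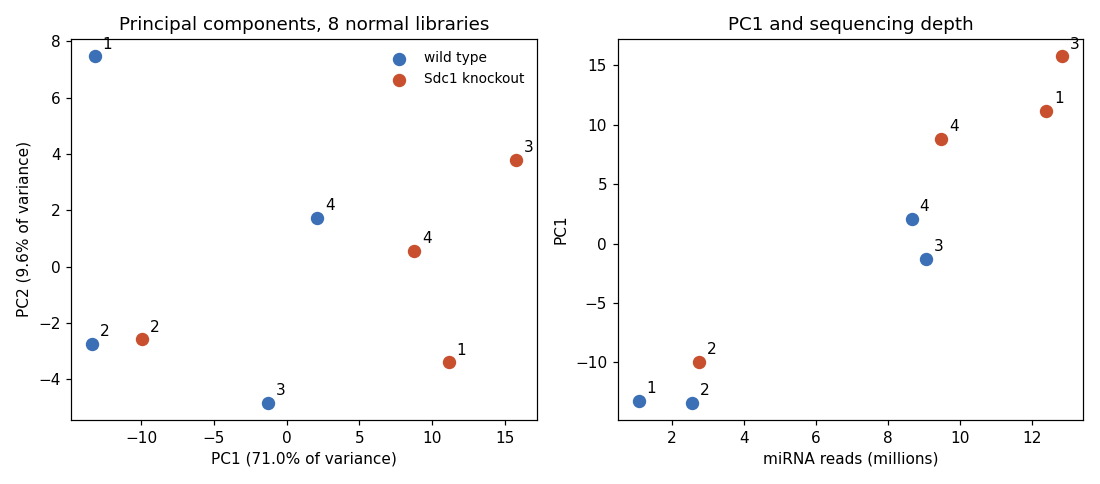
Principal components 1 and 2 of log2(CPM + 5) across the 325 miRNAs for the 8 normal libraries, with each library's genotype and number, and component 1 against miRNA reads in the right panel. Knockout library 2 lies at -9.93 on component 1, near wild-type libraries 1 and 2 at -13.2 and -13.4, and the other knockout libraries lie between 8.78 and 15.8.

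The mature sequences that carry the results are shown first, from RefSeq on build GRCm38.p6, from 5′ to 3′, with the seed (bases 2 to 8) in capitals. They fall into groups that share a seed, and the values below are ordered by these groups. The first set shares the seed AGCAGCA and had positive differences, with overlapping groups for miR-16-5p. The second shares UCAAGUA, and the third is the let-7 family.
miR-195a-5p: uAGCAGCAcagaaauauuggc
miR-497a-5p: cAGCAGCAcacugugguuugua
miR-15a-5p: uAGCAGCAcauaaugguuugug
miR-16-5p: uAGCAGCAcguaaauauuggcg
miR-322-5p: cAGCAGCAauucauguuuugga
miR-26a-5p: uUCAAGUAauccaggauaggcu
miR-26b-5p: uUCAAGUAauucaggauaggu
let-7i-5p: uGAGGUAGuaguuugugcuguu
let-7f-5p: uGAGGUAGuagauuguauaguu
let-7b-5p: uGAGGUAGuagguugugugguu
let-7c-5p: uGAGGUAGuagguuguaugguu

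The next sequences belong to miRNAs of mesenchymal and endothelial cells, which were higher in most knockout libraries, and to epithelial and ciliated-cell miRNAs. Of the latter, miR-205-5p and miR-34b-3p had a negative difference and miR-34b-5p a positive one. Both arms of the miR-34b hairpin are shown because their differences had opposite signs.
miR-199a-5p: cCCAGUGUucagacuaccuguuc
miR-199a-3p: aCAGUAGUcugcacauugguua
miR-126a-3p: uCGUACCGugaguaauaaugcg
miR-205-5p: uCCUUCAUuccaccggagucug
miR-34b-5p: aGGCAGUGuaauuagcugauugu
miR-34b-3p: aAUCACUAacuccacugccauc

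The last set holds 4 miRNAs with the seed AUUGCAC, of which miR-32-5p had a positive difference and the other members a negative one, then miR-3535, and a pair whose genotypes did not overlap.
miR-92a-3p: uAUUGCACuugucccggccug
miR-92b-3p: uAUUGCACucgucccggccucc
miR-25-3p: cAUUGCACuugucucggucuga
miR-32-5p: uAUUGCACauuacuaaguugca
miR-3535: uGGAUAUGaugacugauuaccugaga
miR-340-5p: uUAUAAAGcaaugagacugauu
miR-27a-5p: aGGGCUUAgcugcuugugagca

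No miRNA passed the test across all 8 libraries. With limma's moderated test on log2(CPM + 5), 0 of the 325 miRNAs reached an adjusted p of 0.05 (0%), and the smallest was 0.222. At an unadjusted p under 0.05 there were 58 (17.8%), of which 36 (11.1%) were higher in the knockout and 22 (6.77%) lower. EdgeR's quasi-likelihood test on the recovered reads also called 0, with 67 at an unadjusted p under 0.05 and a smallest adjusted p of 0.127. Median-of-ratios scaling turned the balance of the unadjusted set to 31 higher and 40 lower, and quantile normalization to 31 and 32.

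The number of calls depended on knockout library 2. Without it, limma called 64 miRNAs, 38 higher in the knockout (11.7%) and 26 lower (8%). Leaving out any other library gave 0. Each library was left out in turn, and library 2 is singled out because of its value; it is also the shallowest knockout library, so genotype and depth are less balanced without it. Among the 5 deeper libraries 0 were called and 43 (13.2%) had an unadjusted p under 0.05, with 38 of them higher. With log2 reads as a covariate 0 were called and 20 had an unadjusted p under 0.05, 17 higher and 3 lower. In what follows, log2 differences are knockout minus wild type on the log2(CPM + 5) scale, which understates those of miRNAs at low CPM.

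MiRNAs with the seed AGCAGCA, which act on cell-cycle transcripts, were all above wild type in their fitted mean. Of 5 tested, 5 had a positive difference, with a median of 1.14 beside -0.01 over all 325 miRNAs. That median was the highest among the seeds with at least 3 tested members, which were looked through together. At an unadjusted p under 0.05 there were 4, against 11.1% of all 325 miRNAs higher. Without knockout library 2 the test called 3, against 11.7% of all higher. MiR-497a-5p and miR-15a-5p were below the filter's 10 CPM in every normal wild-type library. Among the normal libraries only knockout ones reached it, and the p-values do not allow for that selection. The seed stands out in these same data and some members are encoded together, so the counts are descriptive. MiR-195a-5p and miR-497a-5p are encoded side by side on chromosome 11, at chr11:70235062-70235082 and chr11:70234730-70234751, with no annotated host gene. MiR-195a-5p stood at 8.22, 6.65, 7.94 and 28.9 CPM in wild-type libraries 1 to 4 and at 84.1, 13.4, 92.7 and 32.6 CPM in knockout libraries 1 to 4. Every wild-type library was below knockout libraries 1, 3 and 4, and knockout library 2 lay between wild-type library 4 and the other wild-type libraries. Its log2 difference was 1.62 (SE 0.48, 95% interval 0.62 to 2.62), with a limma adjusted p of 0.222. Without knockout library 2 it was 2.10 (SE 0.43, limma adjusted p = 0.00983, range over the alternatives 3.45e-05 to 0.757). In the 5 deeper libraries it was 1.72, and after depth adjustment 1.11. MiR-497a-5p was lower, at 0.913, 2.74, 2.87 and 9.70 CPM in wild type and 46.1, 3.27, 50.3 and 17.4 CPM in the knockout, again with knockout libraries 1, 3 and 4 the 3 highest. Its difference was 1.66 (SE 0.56, 95% interval 0.48 to 2.83), 1.89 in the 5 deeper libraries and 0.95 after depth adjustment.

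The other members with this seed lie elsewhere. MiR-15a-5p and miR-16-5p share an intron of the non-coding gene Dleu2 on chromosome 14, and miR-16-5p has a second copy in Smc4 on chromosome 3. MiR-15a-5p was low, at 5.48, 5.08, 6.62 and 4.16 CPM in wild type and 12.02, 12.3, 10.5 and 8.55 CPM in the knockout, all 4 knockout libraries above all 4 wild-type ones. Its difference was 0.62 (SE 0.22, 95% interval 0.15 to 1.08), and after depth adjustment it was 0.63. MiR-16-5p, the more abundant of the pair, stood at 231, 234, 440.2 and 261 CPM and 312, 221, 363 and 466 CPM, with overlapping groups and a difference of 0.22 (SE 0.40, 95% interval -0.61 to 1.06). MiR-322-5p, of the X-linked miR-322 and miR-503 cluster and named after its values were seen, was at 10.05, 7.43, 17.99 and 12.004 CPM in wild type and 36.1, 10.5, 70.7 and 31.2 CPM in the knockout, a difference of 1.14 (SE 0.42, 95% interval 0.26 to 2.03) that was 1.29 in the 5 deeper libraries and 0.86 after depth adjustment.

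**Figure D2:**
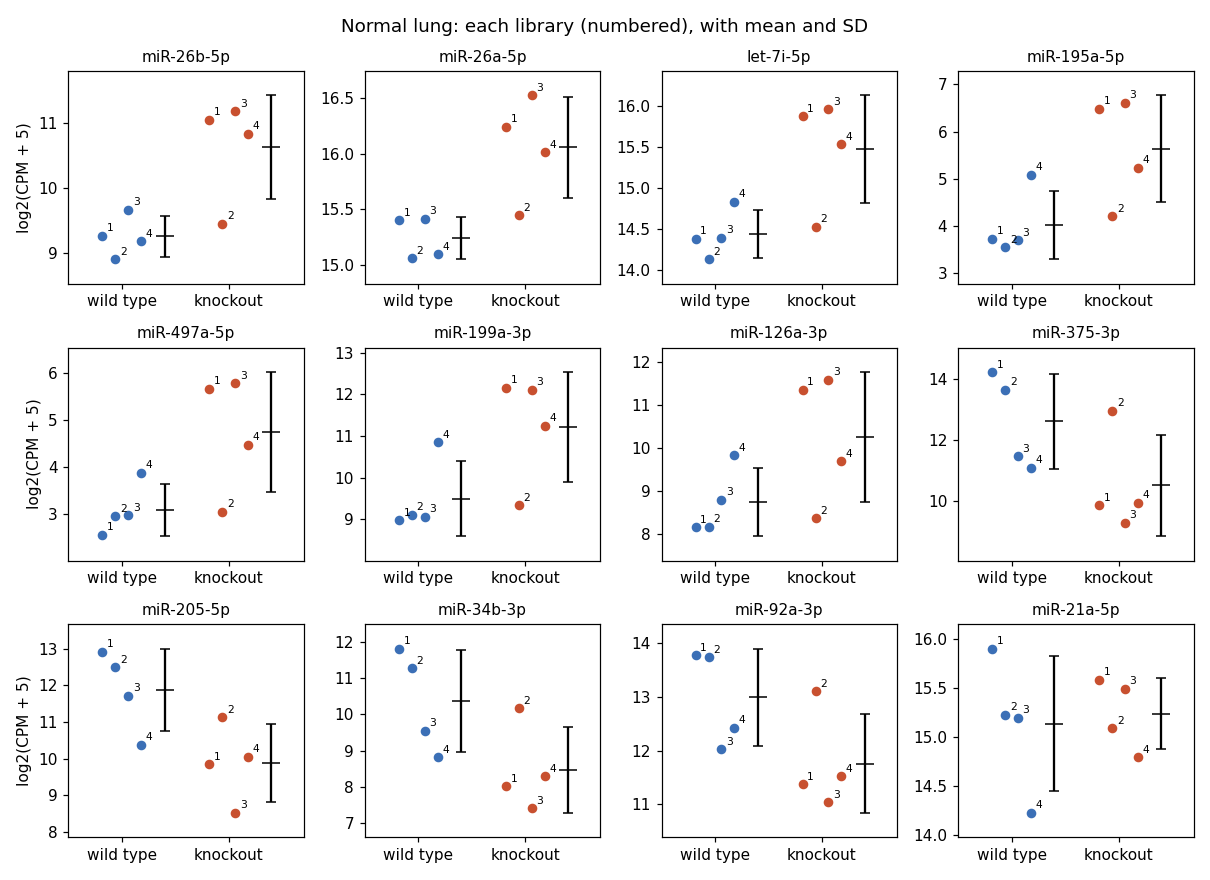
Log2(CPM + 5) of 12 miRNAs in the 8 normal libraries, 1 point per library with its number, wild type and knockout side by side, with the mean and SD (n = 4) as a bar beside each genotype. For miR-26b-5p knockout libraries 1, 3 and 4 lie above wild type and library 2 within it, and for miR-26a-5p all 4 lie above.

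The miR-26 family, known as a brake on growth and made from introns of the Ctdsp phosphatase genes, was higher in the knockout on average. MiR-26b-5p, in an intron of Ctdsp1 at chr1:74394324-74394344, had the smallest p of the 325 miRNAs. It stood at 608, 472, 804 and 572 CPM in wild-type libraries 1 to 4 and at 2099.8, 692, 2308 and 1814 CPM in knockout libraries 1 to 4. Knockout libraries 1, 3 and 4 were above every wild-type library, and knockout library 2 lay inside the wild-type range. The difference was 1.37 (SE 0.40, 95% interval 0.54 to 2.21) with a limma adjusted p of 0.222. It was 1.77 (SE 0.34, limma adjusted p = 0.00983, range over the alternatives 3.37e-05 to 0.757) without knockout library 2, 1.60 in the 5 deeper libraries and 1.03 after depth adjustment.

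MiR-26a-5p, which differs from miR-26b-5p outside the seed, is one of the most abundant vesicle miRNAs and its groups did not overlap. It comes from introns of Ctdsp2 on chromosome 10 and Ctdspl on chromosome 9. Its levels were 43303, 34101, 43590.3 and 35020.1 CPM in wild type and 77488, 44659, 94341 and 66181 CPM in the knockout. All 4 knockout libraries lay above all 4 wild-type libraries, with library 2 the lowest of the knockout. The difference was 0.82 (SE 0.31, 95% interval 0.16 to 1.47). In the list of miR-26 and miR-101, 4 of 6 members were tested, and all 4 differences were positive with a median of 0.94. Of them 3 had an unadjusted p under 0.05, against 11.1% of all 325 miRNAs higher. MiR-101a-3p, which targets the methyltransferase Ezh2, was at 3256 ± 1458 CPM (SD, n = 4) in wild type and 6873 ± 2715 CPM in the knockout, a difference of 1.06 (SE 0.42) that was 0.68 after depth adjustment. MiR-101c, read at a low level, differed by 1.01 (SE 0.31). It was at 0 CPM in wild-type library 1 and at 4.86 to 5.89 CPM in the other normal wild-type libraries. All of these are below the filter's 10 CPM, so it was tested only because of other groups, and its p does not allow for that.

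The let-7 family, regulators of differentiation that restrain proliferation, took a larger share of every knockout library than of any wild-type library. The 9 tested members together held 16.1, 13.8, 11.6 and 14.6% of the reads of wild-type libraries 1 to 4 and 20.3, 17.7, 20.9 and 18.8% of those of knockout libraries 1 to 4. The members did not contribute alike. Let-7i-5p, at chr10:122985698-122985719, stood at 21332, 17986, 21539.6 and 29266 CPM in wild type and 60075, 23632, 63671 and 47407 CPM in the knockout, a difference of 1.04 (SE 0.33, 95% interval 0.35 to 1.72) with a limma adjusted p of 0.222. That difference was 1.17 in the 5 deeper libraries and 0.71 after depth adjustment. Knockout libraries 1, 3 and 4 were the highest. Let-7f-5p was at 24117, 16695, 15431 and 14381 CPM and 42753, 18012, 53595 and 29548 CPM, a difference of 0.94 (SE 0.52, 95% interval -0.14 to 2.03) that was 1.45 in the 5 deeper libraries and 0.63 after depth adjustment. Let-7b-5p and let-7c-5p are encoded together on chromosome 15, and let-7c-5p has a second copy on chromosome 16. They differed by -0.05 (SE 0.33, 95% interval -0.76 to 0.65) and -0.10 (SE 0.30, 95% interval -0.73 to 0.54). Of the 9 members, 7 had a positive difference and 1 an unadjusted p under 0.05, against 11.1% of all 325 miRNAs higher. Without knockout library 2 the test called 2, against 11.7% of all higher. The family share is a sum over members that differ in level, and it was not tested.

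Most miRNAs typical of mesenchymal cells such as fibroblasts and smooth muscle had a higher mean in the knockout. All 10 members of the list were tested, 8 had a positive difference, the median was 0.95, and 5 had an unadjusted p under 0.05, all higher, against 11.1% of all 325 miRNAs. Without knockout library 2 the test called 6, all higher, against 11.7% of all. Their summed share was 4.36, 3.70, 8.31 and 6.02% of reads in wild type and 14.7, 2.22, 7.52 and 5.24% in the knockout. That sum overlapped between the groups, and miR-143-3p makes up most of it. MiR-199a-3p, from Dnm3os on chromosome 1 and a second copy opposite an intron of Dnm2 on chromosome 9, stood at 499.6, 549, 527 and 1832 CPM in wild type and 4564, 639, 4405 and 2413 CPM in the knockout. Knockout libraries 1, 3 and 4 were above every wild-type library, knockout library 2 was near wild-type libraries 1 to 3, and wild-type library 4 was above its own group. The difference was 1.71 (SE 0.56, 95% interval 0.53 to 2.89), and 2.34 (SE 0.47, limma adjusted p = 0.00983, range over the alternatives 3.37e-05 to 0.757) without knockout library 2. It was 1.88 in the 5 deeper libraries and 1.04 after depth adjustment. MiR-199b-3p differs from it little in sequence, so reads may have been split between them, and its difference was 1.71 (SE 0.57).

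The 5p arms gave the same picture. MiR-199a-5p was at 327, 408, 282 and 773 CPM in wild type and 1798, 498, 1823 and 1045 CPM in the knockout, a difference of 1.46 (SE 0.45, 95% interval 0.50 to 2.41) that was 1.68 in the 5 deeper libraries and 1.09 after depth adjustment. MiR-199b-5p had the largest positive difference of the 325 miRNAs, 1.96 (SE 0.68, 95% interval 0.52 to 3.40), from 332 ± 270.3 CPM (SD, n = 4) in wild type and 1497 ± 1004 CPM in the knockout, and it was 2.19 in the 5 deeper libraries and 1.29 after depth adjustment. MiR-143-3p, made with miR-145 in smooth muscle, was at 41339, 34792, 80676 and 55183 CPM and 134370.0, 20179.5, 63783 and 46083 CPM, a difference of 0.08 (SE 0.42, 95% interval -0.81 to 0.97) with wide overlap. Both arms of the endothelial miR-126a had a positive difference with an unadjusted p under 0.05, and both were called without knockout library 2. Over all 325 miRNAs the shares higher were 11.1% and 11.7%. MiR-126a-3p, from Egfl7 at chr2:26591402-26591423 and a regulator of vessel integrity, stood at 279, 282, 437 and 906 CPM in wild type and 2616, 323, 3087 and 820.4 CPM in the knockout. The 2 highest were knockout libraries 1 and 3, wild-type library 4 was above knockout library 4, and knockout library 2 was within the wild-type range. Its difference was 1.51 (SE 0.64, 95% interval 0.18 to 2.85), 1.57 in the 5 deeper libraries and 0.72 after depth adjustment. MiR-126a-5p, whose row equals that of miR-126b-3p in every library, differed by 1.25 (SE 0.57), and by 0.50 after depth adjustment.

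Several other miRNAs were higher without belonging to these groups. MiR-218-5p, processed from introns of the Slit genes, was at 99.6, 69.2, 73.5 and 137 CPM in wild type and 514, 99.9, 503 and 264 CPM in the knockout, a difference of 1.61 (SE 0.54, 95% interval 0.47 to 2.75) that was 1.97 in the 5 deeper libraries and 1.09 after depth adjustment. MiR-100-5p differed by 1.51 (SE 0.60), miR-27b-3p by 1.01 (SE 0.39) and miR-152-3p by 0.94 (SE 0.33), and after depth adjustment by 1.05, 0.60 and 0.68. In each of the 3, knockout library 2 was the lowest of the knockout. MiR-379-5p, of the imprinted Dlk1-Dio3 cluster, was at 5.48, 18.4, 20.97 and 11.8 CPM and 47.5, 29.4, 28.6 and 21.2 CPM, with no overlap between the genotypes and a difference of 0.97 (SE 0.31, 95% interval 0.32 to 1.63). The cluster as a whole had 12 of 50 listed members tested, 5 of them positive, with a median of -0.08.

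Of the remaining families, most had small positive medians. The miR-30 family, common in epithelium, had 9 of 10 tested members positive with a median of 0.46 and 0 at an unadjusted p under 0.05, and its most abundant member, miR-30d-5p, was the negative one. The list of miR-23, miR-27 and miR-24 had a median of 0.41 over 8 members, the miR-181 family 0.35 over 4, miR-148 and miR-152 0.33 over 3 and the miR-29 family 0.17 over 4. The X-linked cluster of miR-322 and miR-503 had 10 of 13 members tested, 7 positive, with a median of 0.48. Its members did not differ alike, from -0.74 to 1.14. The list of miR-10, miR-99, miR-100 and miR-125 had a median of -0.16 over 8 members, from -0.58 to the 1.51 of miR-100-5p. MiR-99a-3p, from the other arm of miR-99a, was at 2.74, 5.87, 11.7 and 13.7 CPM in wild type and 30.4, 7.99, 28.9 and 26.4 CPM in the knockout, a difference of 1.05 (SE 0.34, 95% interval 0.34 to 1.77) that was 0.92 in the 5 deeper libraries and 0.70 after depth adjustment, with knockout library 2 within the wild-type range.

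**Figure D3:**
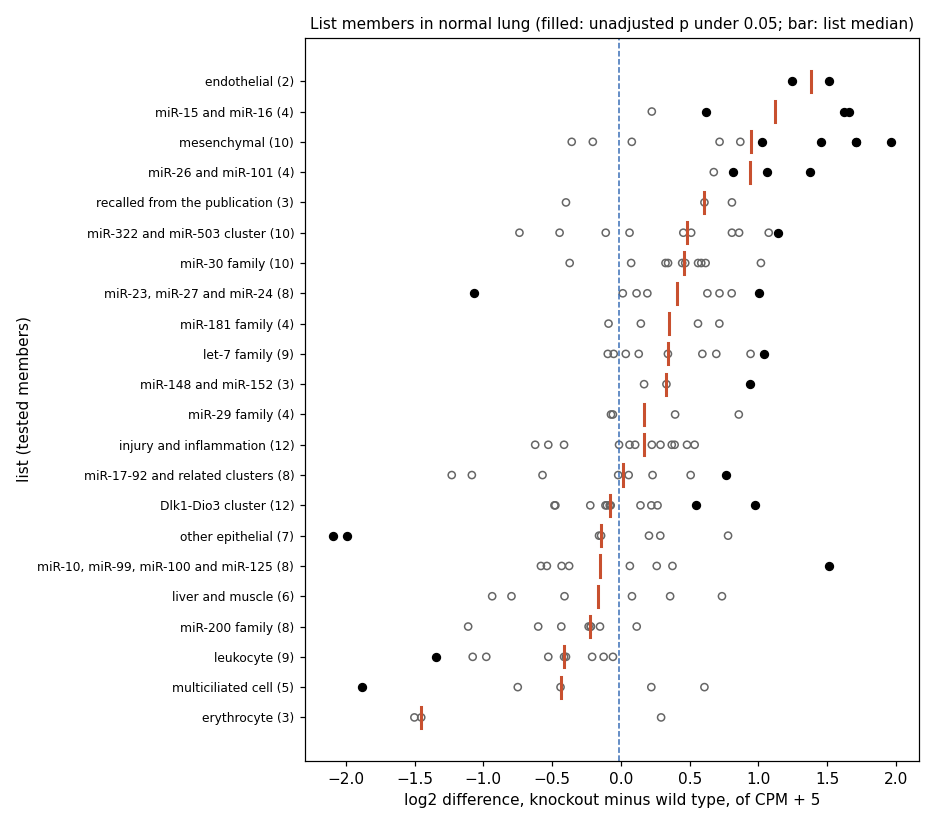
Log2 differences, knockout minus wild type, of every tested member of each list of miRNAs, one point per miRNA, filled at an unadjusted p under 0.05, with the list's median as a bar and the median of all 325 miRNAs (-0.01) as a dashed line. The endothelial, miR-15 and miR-16, mesenchymal, and miR-26 and miR-101 lists have the highest medians, and the erythrocyte list the lowest.

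Among miRNAs that were lower in the knockout, several mark epithelial or ciliated cells, while other members of those lists were higher. MiR-375-3p, enriched in neuroendocrine and secretory epithelium, stood at 19098, 12814, 2829 and 2182 CPM in wild type and 924, 7943, 622 and 982 CPM in the knockout. Wild-type libraries 1 and 2 and knockout library 2, the shallow ones, were the 3 highest, and knockout libraries 1, 3 and 4 were below every wild-type library. Its difference of -2.09 (SE 0.93, 95% interval -4.04 to -0.15) was the largest negative one and became -1.58 in the 5 deeper libraries and -0.64 after depth adjustment. MiR-205-5p, of basal epithelial cells, was at 7723, 5743, 3365 and 1328 CPM and 916, 2227, 364 and 1053 CPM, a difference of -1.99 (SE 0.87, 95% interval -3.82 to -0.16) that was -1.58 in the 5 deeper libraries and -0.91 after depth adjustment, with knockout library 2 between wild-type libraries 3 and 4. The other epithelial list had 7 of 8 members tested, 3 of them positive, and 2 members, these, at an unadjusted p under 0.05, against 6.77% of all 325 miRNAs lower. Without knockout library 2 the test called 1, miR-375-3p, lower (limma adjusted p = 0.0336), against 8% of all 325 miRNAs lower. The list's median was -0.14, but 0.09 in the 5 deeper libraries and 0.14 after depth adjustment. The miR-200 family, which maintains epithelial identity, had 8 of 9 members tested, a median of -0.23 and 0 at an unadjusted p under 0.05. MiR-200a-3p, its most abundant member, was at 46155 ± 11482 CPM (SD, n = 4) in wild type and 30981 ± 9903 CPM in the knockout, a difference of -0.60 (SE 0.52, 95% interval -1.69 to 0.49).

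The miR-34 and miR-449 families build motile cilia, and their members did not differ as one. Of 5 tested members of 7 listed, 2 had a positive difference, and the median was -0.44. In the 5 deeper libraries the median was 0.22, and after depth adjustment 0.13. Without knockout library 2 the test called 1 member, lower, against 8% of all 325 miRNAs lower. MiR-34b-3p stood at 3547, 2450.4, 742 and 445 CPM in wild type and 255, 1143, 166 and 307 CPM in the knockout, a difference of -1.88 (SE 0.78, 95% interval -3.51 to -0.25) that was -1.27 in the 5 deeper libraries and -0.70 after depth adjustment, and knockout libraries 1, 3 and 4 were the 3 lowest. Its partner from the other arm of the same hairpin, miR-34b-5p, was at 81.3, 47.3, 56.6 and 23.4 CPM and 117, 63.6, 50.7 and 86.3 CPM, a difference of 0.61 (SE 0.46, 95% interval -0.35 to 1.57) that was 1.03 in the 5 deeper libraries and 0.95 after depth adjustment. MiR-34c-5p, the most abundant member, differed by 0.22 (SE 0.49, 95% interval -0.81 to 1.25).

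The ratio of the 5p to the 3p arm, each as CPM + 5, was tested within each library for the 79 hairpins with both arms measured. Scaling cancels from it except through the added 5, which matters most for arms at low CPM. MiR-34b had the smallest p. The log2 ratio of its 5p to its 3p arm was -5.36, -5.55, -3.60 and -3.98 in wild-type libraries 1 to 4 and -1.09, -4.07, -1.62 and -1.77 in knockout libraries 1 to 4. Knockout libraries 1, 3 and 4 were above every wild-type library, and knockout library 2 fell between wild-type libraries 4 and 1. The difference was 2.49 (SE 0.62, 95% interval 1.16 to 3.82), with a limma adjusted p of 0.0937. Without knockout library 2 it was 3.13 (limma adjusted p = 0.00128), and in the 5 deeper libraries 2.30 (limma adjusted p = 0.0292), within a range of 0.000126 to 0.431 over the alternatives. In limma 0 of the 79 hairpins were called and 11 (13.9%) had an unadjusted p under 0.05, 10 higher in the knockout and 1 lower. Among the higher were miR-324 at 0.94 (SE 0.35) and miR-135b at 1.46 (SE 0.54), and the lower was miR-27a at -1.19 (SE 0.46). MiR-503, at 1.25 (SE 0.54), was also called in the 5 deeper libraries (limma adjusted p = 0.0292). The 79 hold miR-126a with miR-126b and miR-486a with miR-486b, whose ratios are mirror images.

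As in several seed groups, the members with AUUGCAC had differences of both signs. Without knockout library 2 the test called 2 lower, against 8% of all 325 miRNAs, and 1 higher, against 11.7%. MiR-92a-3p, miR-92b-3p, miR-25-3p and miR-32-5p share AUUGCAC, and come from the miR-17-92 cluster, a separate gene on chromosome 3, Mcm7 and Tmem245. A second copy of miR-92a-3p lies on the X chromosome. MiR-92a-3p was at 13969, 13616, 4160.5 and 5498 CPM in wild type and 2641, 8761, 2102 and 2943 CPM in the knockout, a difference of -1.23 (SE 0.59, 95% interval -2.46 to 0.00) that was -0.91 in the 5 deeper libraries and -0.42 after depth adjustment. MiR-92b-3p differed by -1.67 (SE 0.80, 95% interval -3.34 to 0.00) and miR-25-3p by -1.08 (SE 0.55, 95% interval -2.24 to 0.07), and after depth adjustment by -0.42 and -0.53. MiR-32-5p, named after its values were seen, was at 18.3, 10.95, 11.3 and 9.003 CPM and 38.2, 10.2, 36.7 and 34.2 CPM, a difference of 0.92 (SE 0.39, 95% interval 0.09 to 1.74) that was 1.45 in the 5 deeper libraries and 0.76 after depth adjustment. Its GC content is 31.8%, against 50% in miR-25-3p, 57.1% in miR-92a-3p and 63.6% in miR-92b-3p. The list of miR-17-92 and related clusters had a median of 0.02 over 8 of 13 members tested.

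No blood-cell miRNA of the lists was called across all 8 libraries. Without knockout library 2 the test called 1 of the leukocyte list, lower, against 8% of all 325 miRNAs lower. All 9 members of the leukocyte list had a negative difference, with a median of -0.41, and 1, miR-223-5p, had an unadjusted p under 0.05 (chosen after its value was seen, -1.34 (SE 0.62)). Of all 325 miRNAs 6.77% were lower at that threshold. Their summed share was 0.137, 0.119, 0.108 and 0.0754% in wild type and 0.0839, 0.0926, 0.0695 and 0.0658% in the knockout. MiR-223-3p, of neutrophils and macrophages, was at 219, 236, 216 and 140.2 CPM and 91.4, 161, 67.3 and 94.4 CPM, a difference of -0.98 (SE 0.50, 95% interval -2.02 to 0.06) that was -1.02 in the 5 deeper libraries and -0.63 after depth adjustment. The erythrocyte list had 3 of 5 members tested and a median of -1.45, with 0 at an unadjusted p under 0.05. These were miR-451a, miR-486a-5p and miR-486b-5p. The row of miR-486b-5p equals that of miR-486a-3p, so the negative median rests on the arms of miR-486. MiR-486a-5p, of red cells, was at 641, 2559, 632 and 147 CPM in wild type and 307, 1434, 36.8 and 128 CPM in the knockout, a difference of -1.50 (SE 1.13, 95% interval -3.87 to 0.86) that was -1.37 in the 5 deeper libraries and -0.20 after depth adjustment, and its row equals that of miR-486b-3p. MiR-451a differed by 0.29 (SE 0.84, 95% interval -1.47 to 2.05). Whether blood or leukocyte RNA had a part in the other differences was not tested.

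MiR-3535 and miR-6236 also had lower means. MiR-3535, annotated in an exon of Ncl at chr1:86352062-86352087, was at 148, 82.5, 63.2 and 25.2 CPM in wild type and 19.04, 54.8, 7.63 and 15.7 CPM in the knockout, a difference of -1.55 (SE 0.50, 95% interval -2.61 to -0.49) that was -1.30 in the 5 deeper libraries and -0.92 after depth adjustment. The search for host genes left out small nucleolar and other small RNA genes, so an overlap of miR-3535 with one was not checked. MiR-6236 was at 6146, 2453, 649 and 574 CPM and 236, 1654, 248 and 525 CPM, a difference of -1.68 (SE 0.73, 95% interval -3.22 to -0.14) that was -0.95 in the 5 deeper libraries and -0.56 after depth adjustment. In both, knockout library 2 was the highest of the knockout and below wild-type libraries 1 and 2.

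In 13 miRNAs the 4 knockout libraries, library 2 included, did not overlap the 4 wild-type ones. Over the 70 arrangements of 4 against 4, chance alone gives a fraction of 0.029 without overlap, both directions together. The shares below are near that, so the lack of overlap is described and not read as a result. In 6 of the 325 (1.85%) all knockout libraries were higher, namely miR-15a-5p, miR-26a-5p, miR-379-5p, miR-340-5p, miR-652-3p and miR-19a-3p. In 7 (2.15%) all were lower, namely miR-27a-5p, miR-93-5p, miR-425-3p, miR-28a-3p, miR-1839-5p, miR-7b-5p and miR-217-5p, of which miR-7b-5p and miR-217-5p, like miR-19a-3p, were named after their values were seen. MiR-340-5p, in an intron of Rnf130, stood at 373, 249, 242 and 201 CPM in wild type and 603, 406, 465 and 494 CPM in the knockout, a difference of 0.90 (SE 0.33, 95% interval 0.20 to 1.60) that was 0.93 after depth adjustment. MiR-652-3p was at 559.9, 675, 635 and 695 CPM and 1124, 770.0, 1176 and 1148 CPM, a difference of 0.70 (SE 0.56, 95% interval -0.48 to 1.87). MiR-27a-5p, the passenger arm of miR-27a, was at 66.7, 118, 59.1 and 62.8 CPM and 25.98, 51.6, 28.3 and 28.6 CPM, a difference of -1.07 (SE 0.37, 95% interval -1.85 to -0.29) that was -1.02 in the 5 deeper libraries and -0.76 after depth adjustment, and its 3p partner differed by 0.11 (SE 0.39, 95% interval -0.70 to 0.92). MiR-93-5p, next to miR-25 in Mcm7, differed by -0.57 (SE 0.45, 95% interval -1.51 to 0.37). The shared estimate of the spread includes the bleomycin libraries, and the adjusted p of the 13 was at least 0.222 in limma.

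**Figure D4:**
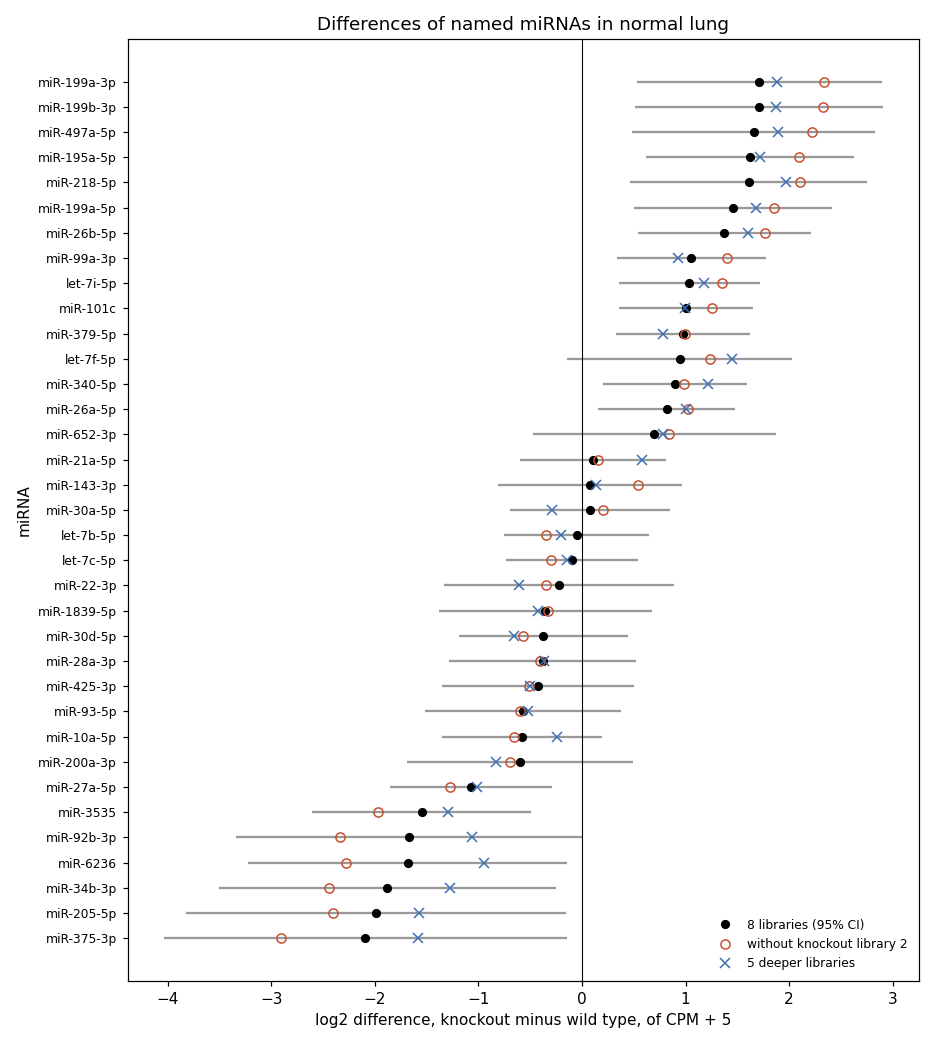
Log2 differences, knockout minus wild type, of named miRNAs from all 8 normal libraries (filled, with 95% intervals), without knockout library 2 (open) and in the 5 deeper libraries (crosses). For miR-375-3p they are -2.09, -2.91 and -1.58, and for miR-26a-5p 0.82, 1.02 and 1.01.

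Abundant miRNAs other than miR-26a-5p, let-7i-5p, let-7f-5p and miR-200a-3p, given above, had smaller differences or wide intervals. MiR-30d-5p, the largest single component, was at 240487 ± 37661 CPM (SD, n = 4) in wild type and 193235 ± 69374 CPM in the knockout, a difference of -0.37 (SE 0.39, 95% interval -1.19 to 0.45). MiR-30a-5p, of the same family and common in lung epithelium, differed by 0.07 (SE 0.37, 95% interval -0.70 to 0.85). MiR-21a-5p, raised in many injured tissues, was at 61185, 38308, 37592 and 19118 CPM in wild type and 49108, 34849, 46169 and 28397 CPM in the knockout, a difference of 0.10 (SE 0.33, 95% interval -0.60 to 0.81). MiR-10a-5p differed by -0.58 (SE 0.37, 95% interval -1.36 to 0.19) and miR-22-3p by -0.22 (SE 0.53, 95% interval -1.33 to 0.89). These intervals exclude a 4-fold difference for miR-21a-5p and miR-30d-5p and do not show the genotypes to be alike. The injury and inflammation list had 12 of 13 members tested, a median of 0.16 and 0 at an unadjusted p under 0.05.

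MiR-34b-5p, miR-142a-3p, miR-144-3p and miR-503-5p are recalled as miRNAs on which the study's publication centred, a membership not checked here. MiR-503-5p was at 12.8, 21.9, 66.1 and 35.3 CPM in wild type and 59.1, 15.3, 88.1 and 101 CPM in the knockout, a difference of 0.81 (SE 0.52, 95% interval -0.28 to 1.89). MiR-142a-3p, of blood cells, was at 7.31, 6.26, 4.19 and 2.08 CPM and 2.18, 5.45, 1.79 and 0.844 CPM, a difference of -0.40 (SE 0.31, 95% interval -1.04 to 0.24), at a few CPM in every library. MiR-144-3p did not reach the 10 CPM filter. None of the 3 tested passed in limma in normal lung, with adjusted p from 0.366 to 0.472.

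Base composition ran along with the differences. For the 280 of 325 miRNAs (86.2%) with a RefSeq sequence, the log2 difference and the GC content of the mature sequence had a Pearson r of -0.33 and a Spearman rho of -0.34 across miRNAs, which are not independent replicates and share their libraries. The 86 miRNAs with the least GC had a median difference of 0.25 and 69.8% were positive, and the 65 with the most GC had a median of -0.28 and 33.8% were positive. The r was -0.33 without knockout library 2, -0.28 in the 5 deeper libraries and -0.28 after depth adjustment. For the genotype difference after bleomycin, from other libraries with mean depths of 5004907 reads in the knockout and 4118013 in wild type, it was -0.45. The same measure had an r of -0.30 with the difference of wild-type libraries 3 and 4 from wild-type libraries 1 and 2, and of -0.29 with that of knockout libraries 1, 3 and 4 from library 2. Between deeper and shallower libraries of one genotype, miRNAs of lower GC were thus also the relatively higher ones. The 4 bases GGAG, a motif described for sorting of miRNAs into exosomes, occurred in 23 of the 280 (8.21%), with a median difference of -0.28 against 0.05 in the rest. Its part in the differences was not tested.

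**Figure D5:**
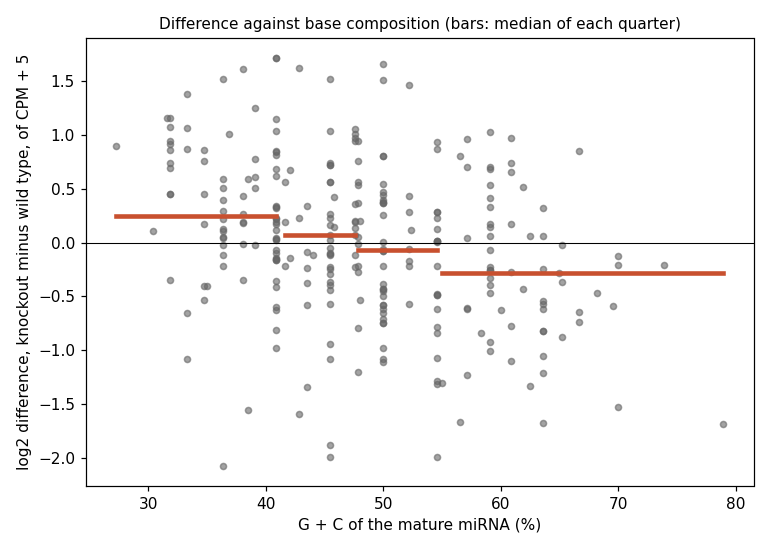
Log2 difference, knockout minus wild type, of each of the 280 miRNAs with a RefSeq sequence against the GC percent of its mature sequence, with the median of each GC bin as a bar. The median runs from 0.25 in the bin of lowest GC to -0.28 in that of highest GC.

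The genotype difference was also set beside that after bleomycin, which shares no library with it. MiR-26b-5p, miR-195a-5p, let-7i-5p, miR-199a-3p and miR-126a-3p differed by 0.74, 0.16, 0.16, 0.19 and -0.39 there, against 1.37, 1.62, 1.04, 1.71 and 1.51 in normal lung. The difference of the differences was tested as an interaction, and limma called 0 of 325, with 24 (7.38%) at an unadjusted p under 0.05. MiR-142a-3p, whose row equals that of miR-142b, had the smallest p, an interaction of 1.87 (SE 0.43, limma adjusted p = 0.0671). Its log2 difference after bleomycin was 1.47 (SE 0.31, limma adjusted p = 0.0230), and its difference in normal lung was -0.40. In every normal library miR-142a-3p was below the CPM level of the filter, so it was tested only because of its bleomycin libraries. The filter thus selected this miRNA by libraries that the tests also compare, and its p-values do not allow for that. For the leading miRNAs above the interaction did not pass, so they are not shown to differ between normal and injured lung.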

How the data were processed

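The labels describe 16 small RNA libraries of vesicles from mouse lavage, isolated with a QIAGEN miRNA kit. The authors deposited CPM for 1907 mature miRNAs, with each column summing to 1000000. All values above 0 (100%) were whole multiples of 1 read within 0.001 of a read, so the reads were recovered. Per the submitters' processing notes, Bowtie2 2.2.3 and GRCh38, a human build, were used, with no role given. For the read counter, the trimming and the miRBase release, a description was not given in the sources used here, and some reads could fit several near-identical miRNAs; 8 pairs of tested rows were identical.

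Log2(CPM + 5) was fitted with limma 3.58.1 in R 4.3.3 (trend, 4 group means over 16 libraries), with Benjamini-Hochberg adjustment at 0.05 over 325 miRNAs, and edgeR 4.0.16 was run on recovered reads. The method was tested on 20 simulated data sets, in each of which 60 of the 325 miRNAs were changed. It recovered 16.4% of 2-fold and 68.9% of 4-fold changes, and on average 7.63% of its calls were false. The simulated libraries had no shift shared by many miRNAs, unlike the first principal component here. Alternatives were pseudocounts of 1 and 20, other filters, other scalings, array weights, a replicate block, log2 reads as a covariate, and leaving out libraries. Array weights by gene-by-gene estimation and edgeR on only the 8 normal libraries were chosen after seeing the data. Exact permutation tests over 70 arrangements (smallest p 0.029) compared 3 library measures. Positions and sequences were from RefSeq GRCm38.p6, and host genes from GENCODE M21.

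Members and lists were chosen with earlier results of these data known. The named miRNAs are the 12 with the smallest p, the 12 most abundant, up to 4 members of each of 22 lists, the 6 largest differences at 1000 CPM or more, up to 10 without overlap at 50 CPM or more, and the 5 smallest p of the interaction and of the arm ratio. Others are stated where named.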

Additional observations from a re-analysis of the deposited data

Results flagged for a closer look

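A library stood far from the 3 others of its genotype for several named miRNAs, by Dixon's ratio of its gap to the group's range on the log2(CPM + 5) scale, beyond its 95% critical value. Of 208 groups examined 18 passed, and chance alone flags about 1 in 20. In 7 of them knockout library 2 was the one apart.

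In knockout library 2, miR-99a-3p was lower than in the others, at 7.99 CPM against 26.4 to 30.4 (ratio 0.879). MiR-125a-5p was higher in knockout library 2 than in the others, at 5609 CPM against 1682 to 1991 (ratio 0.86). MiR-101b-3p was lower in knockout library 2 than in the others, at 1053 CPM against 2149 to 2395 (ratio 0.868). In knockout library 4, miR-29a-3p was higher than in the others, at 6361 CPM against 5221 to 5354 (ratio 0.873). MiR-181c-5p was lower in knockout library 2 than in the others, at 31.2 CPM against 43.7 to 46.6 (ratio 0.835). MiR-27a-5p was higher in knockout library 2 than in the others, at 51.6 CPM against 25.98 to 28.6 (ratio 0.866). In knockout library 2, miR-222-3p was higher than in the others, at 809 CPM against 632 to 654 (ratio 0.856). MiR-652-3p was lower in knockout library 2 than in the others, at 770.0 CPM against 1124 to 1176 (ratio 0.893).

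In wild-type library 4, miR-199a-3p was higher than in the others, at 1832 CPM against 499.6 to 549 (ratio 0.928). MiR-29b-3p was higher in wild-type library 3 than in the others, at 57.5 CPM against 30.9 to 31.5 (ratio 0.97). MiR-195a-5p was higher in wild-type library 4 than in the others, at 28.9 CPM against 6.65 to 8.22 (ratio 0.881). In wild-type library 3, let-7b-5p was lower than in the others, at 19496 CPM against 29118 to 29369.8 (ratio 0.979). MiR-199b-5p was higher in wild-type library 4 than in the others, at 737 CPM against 182 to 214 (ratio 0.885). MiR-199b-3p was higher in wild-type library 4 than in the others, at 631 CPM against 162 to 186 (ratio 0.896). In wild-type library 3, miR-200a-3p was higher than in the others, at 63306 CPM against 39002 to 41504 (ratio 0.872). MiR-182-5p was higher in wild-type library 3 than in the others, at 1660.5 CPM against 1005 to 1094 (ratio 0.831). MiR-101c was lower in wild-type library 1 than in the others, at 0 CPM against 4.86 to 5.89 (ratio 0.872). In wild-type library 4, miR-223-3p was lower than in the others, at 140.2 CPM against 216 to 236 (ratio 0.832).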

How the results depend on the processing

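The counts of calls in normal lung were 0 under both other pseudocounts, both other filters, both other scalings, edgeR and the fit of the 8 normal libraries alone. They were 191 with array weights (95 higher, 96 lower) and 140 with gene-by-gene weights (71 and 69), which gave knockout library 2 weights of 0.242 and 0.287. Leaving out 1 library in turn gave 0 to 64, and only the fit without knockout library 2 gave more than 0. The interaction had 102 calls with array weights, 11 with gene-by-gene weights, 2 after depth adjustment, and 0 to 2 when 1 library was left out. The arm ratio had 28 with array weights, whose estimation gave a convergence warning, 24 with gene-by-gene weights, 2 in the 5 deeper libraries, and 0 to 7 when 1 library was left out. The cause of each was not tested.

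With the replicate number as a block there were 0 calls, 56 miRNAs at an unadjusted p under 0.05 and a smallest adjusted p of 0.223. The numbers were not shown to pair the libraries. Same-numbered libraries had correlations of -0.435, 0.798, 0.271 and 0.376 of their deviations, and not every library was closest to its own number. These correlations may also reflect depth, so they cannot decide whether the libraries were paired. Of 3008 values of the 101 named miRNAs under the alternatives, 2885 kept their side of the threshold and 123 passed it newly, 55 with array weights, 42 with gene-by-gene weights and 26 without knockout library 2; 119 changed sign with no call and 0 called values did. Depth limits rare miRNAs: 3 reads are 2.74 CPM in the shallowest library.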

Other observations

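Some values fall outside these groups and were chosen after they were seen. MiR-1298-5p, miR-1264-3p and miR-448-3p lie in introns of Htr2c, the serotonin receptor gene on the X chromosome. MiR-1298-5p was at 1221, 747, 580.1 and 347 CPM in wild-type libraries 1 to 4 and 80.999, 536, 107 and 143 CPM in knockout libraries 1 to 4, a log2 difference of -1.99 (SE 0.68, 95% interval -3.42 to -0.55) that was -2.01 in the 5 deeper libraries and -1.09 after depth adjustment. The differences of miR-1264-3p and miR-448-3p were -2.07 (SE 0.93, 95% interval -4.01 to -0.12) and -0.81 (SE 0.37, 95% interval -1.59 to -0.04).

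Liver and muscle miRNAs were measured in the vesicles too, with 6 of 9 listed members tested and a median difference of -0.17. MiR-1a-3p, of heart and skeletal muscle, was at 574, 3538, 1705 and 597 CPM in wild type and 2107, 2913, 255 and 418 CPM in the knockout, and miR-133a-3p at 108, 1129, 409.9 and 114 CPM and 336, 559, 45.02 and 67.2 CPM. Their differences were -0.41 (SE 0.80, 95% interval -2.10 to 1.28) and -0.80 (SE 1.01, 95% interval -2.92 to 1.33), and neither passed in limma.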
